A study of Homo sapiens with 90 samples.

Results

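The arrays described here are those of the 4 lowest concentrations, 0.001, 0.003, 0.01 and 0.03 µM, of fenbuconazole, imazalil and 2,4-D in HepaRG cells. They were chosen by the concentration given in the sample labels and by no measured value. Each chemical contributed 12 such arrays, so that 36 of the 90 columns of the series are members. They were compared with 3 common DMSO arrays. HepaRG is a human hepatic cell line that differentiates into hepatocyte-like and biliary-like cells and keeps the drug-metabolising enzymes of liver. Cells in 96-well plates received a chemical or the vehicle for 24 h, and treated and control wells alike contained 0.2% DMSO. Fenbuconazole is a triazole fungicide, imazalil is an imidazole fungicide, and 2,4-D (2,4-dichlorophenoxyacetic acid) is a phenoxy herbicide. Each concentration had 3 replicates, which the study's supplement describes as experiments on separate batches of cells. The P code in the sample labels was taken as the batch, although the replicate number in the title differs from it for many 2,4-D samples. By this code every concentration and the DMSO group had 1 array per batch. The model is therefore a single cell line with 3 controls in all.

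Robust multi-array average (RMA) normalisation was run on 1 chemical at a time, and the DMSO arrays were part of every run. The 9 DMSO columns are thus 3 physical arrays, and the comparisons of the 3 chemicals with DMSO share their controls. A deviation of these 3 arrays enters all 3 comparisons, and it cannot be told apart from a change that the chemicals have in common. Running numbers in the sample labels place DMSO first, then 2,4-D, fenbuconazole and imazalil in every batch, so a chemical and its place in that order also cannot be told apart. All values are log2 levels after RMA, and a difference is the mean of the low-dose groups minus the DMSO mean of the same set.

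Hepatocytes sense foreign chemicals mainly through 3 receptors. The constitutive androstane receptor (CAR) and the pregnane X receptor (PXR) raise CYP2B6 and CYP3A4, and the aryl hydrocarbon receptor (AHR) raises CYP1A1 and CYP1A2. Azole fungicides also bind the heme of P450 enzymes, including the sterol demethylase of the cholesterol pathway, and blocked cholesterol synthesis is known to raise the targets of the transcription factor SREBP2. The comparison asked whether any of these programmes, or any other gene, differed from vehicle at the bottom of the concentration range, and whether the 3 chemicals differed from each other there.

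The defining genes of hepatocytes were abundant in the DMSO arrays. All 13 measured hepatocyte markers had a DMSO mean of at least 4, from 6.66 for TAT, a tyrosine catabolic enzyme, to 13.3 for SERPINA1, a secreted protease inhibitor, and albumin (ALB) stood at 13.2. Of 8 biliary markers 4 reached that level, among them KRT19 at 9.97. Of 9 mesenchymal markers 4 did, with the matrix proteoglycan DCN at 9.04. Endothelial and immune markers were mostly near the floor of the array, with 1 of 7 and 2 of 8 at 4 or above, and the leukocyte antigen PTPRC stood at 2.55 and the endothelial cadherin CDH5 at 2.21. Each array measured a whole culture, in which fewer cells of a type and less RNA per cell cannot be told apart.

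The DMSO array of batch 2 lay farther from its own batch than any other array considered. For each array, the SD over 54715 probe sets of its difference from the other low-dose and DMSO arrays of its set and batch was taken. This SD was 0.255 to 0.271 for the DMSO array of batch 2 in the 3 sets, against 0.180 to 0.196 for batch 1 and 0.180 to 0.200 for batch 3. The 36 low-dose arrays lay between 0.162 and 0.242, with a median of 0.187. None of them reached the lowest value of the batch 2 DMSO array.

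**Figure D1:**
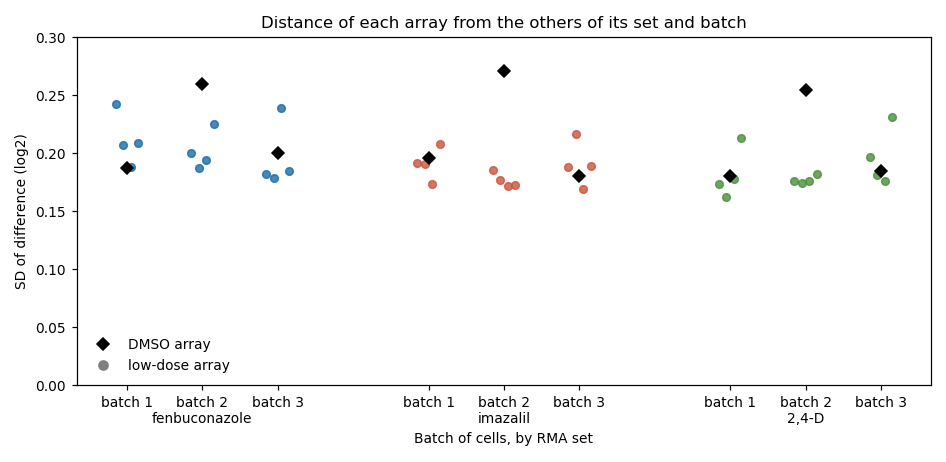
Distance of each array from the other low-dose and DMSO arrays of its RMA set and batch, as the SD over probe sets of the log2 difference. Black diamonds are DMSO arrays and coloured circles are low-dose arrays. The batch 2 DMSO array lies at 0.255 to 0.271 in the 3 sets, above every low-dose array (0.162 to 0.242).

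No gene of xenobiotic metabolism passed the test against DMSO. CYP3A4, the main drug-oxidising P450 of liver and a PXR target, had DMSO levels of 10.02, 9.70 and 9.88 in batches 1, 2 and 3 of the fenbuconazole set. The 12 low-dose fenbuconazole arrays ran from 9.37 through a median of 9.62 to 9.85. Of these arrays 7 lay below all DMSO arrays and 5 among them. The difference was -0.25 (SE 0.13, adjusted p = 0.988). With imazalil the 12 arrays ran from 9.51 through 9.81 to 10.13 beside DMSO levels of 10.01, 9.75 and 9.90, a difference of -0.072 (SE 0.10, adjusted p = 0.902). With 2,4-D they ran from 9.49 through 9.68 to 10.12 beside 10.10, 9.79 and 9.94, a difference of -0.21 (SE 0.10, adjusted p = 0.729). Over the 3 chemicals the difference of CYP3A4 was -0.18 (95% interval -0.39 to 0.034, adjusted p = 0.854), and 19 of 36 arrays lay below all DMSO arrays of their set.

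CYP2B6, the classical CAR target, overlapped the controls in all 3 sets, and the sign of its difference varied between batches, at 0.22, -0.19 and -0.17 over the 3 chemicals. In the imazalil set its DMSO levels were 4.03, 4.26 and 4.27, and the low-dose arrays ran from 3.88 through 4.14 to 4.36. The difference was -0.031 with a 95% interval of -0.30 to 0.23. For fenbuconazole it was -0.025 (-0.43 to 0.38) and for 2,4-D -0.086 (-0.31 to 0.14). CYP1A1, the most inducible AHR target, stood at 2.91, 3.04 and 2.58 in DMSO and ran from 2.34 through 2.80 to 3.09 in the low-dose fenbuconazole arrays. Its difference was -0.099 for fenbuconazole, 0.0079 for imazalil and -0.020 for 2,4-D, with 95% intervals of -0.42 to 0.23, -0.40 to 0.42 and -0.22 to 0.19. CYP1A2, a second AHR target, gave -0.065, 0.11 and -0.14, each with an SE of 0.15 to 0.19. The adjusted p of these P450 genes lay between 0.729 and 0.999 in the comparisons with DMSO. The 4 probe sets of CYP3A4 gave differences over all 3 chemicals of -0.18, -0.17, -0.033 and -0.040, and the 2 probe sets of CYP2B6 gave -0.047 and 0.11. The probe sets used for CYP3A4 and CYP1A2 carry the suffix that marks possible cross-hybridisation of some probes. Other transcripts, such as those of related P450 genes, may therefore contribute to their signal.

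With the 2 azole fungicides, but not with 2,4-D, P450 genes passed the test on arrays of higher concentration. The 9 arrays at 1, 3 and 10 µM were set against the 12 low-dose arrays of the same set, which needs no DMSO array. With imazalil, CYP2B6 rose by 2.74 (SE 0.088, adjusted p = 8.51e-18), CYP1A1 by 2.50 (SE 0.14, adjusted p = 1.15e-12) and CYP3A4 by 1.85 (SE 0.069, adjusted p = 9.05e-17). CYP1A2 rose by 1.51 (SE 0.12, adjusted p = 5.05e-09). With fenbuconazole, CYP2B6 rose by 1.25, CYP3A4 by 1.21 and CYP1A1 by 0.88, whereas CYP1A2, at 0.55, did not pass (adjusted p = 0.0843). With 2,4-D the differences of CYP2B6, CYP3A4, CYP1A1 and CYP1A2 were 0.032, 0.29, 0.10 and 0.13, with adjusted p of 1, 0.272, 0.957 and 0.98. Over all probe sets 122 rose and 177 fell with imazalil (0.223% and 0.323% of 54715), 84 rose and 49 fell with fenbuconazole (0.154% and 0.0896%), and 1 rose and 12 fell with 2,4-D (0.00183% and 0.0219%). Without batch 1, 2 or 3 the counts were 158, 59 and 62 for imazalil, 29, 31 and 72 for fenbuconazole and 1, 0 and 0 for 2,4-D, from fewer arrays.

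**Figure D2:**
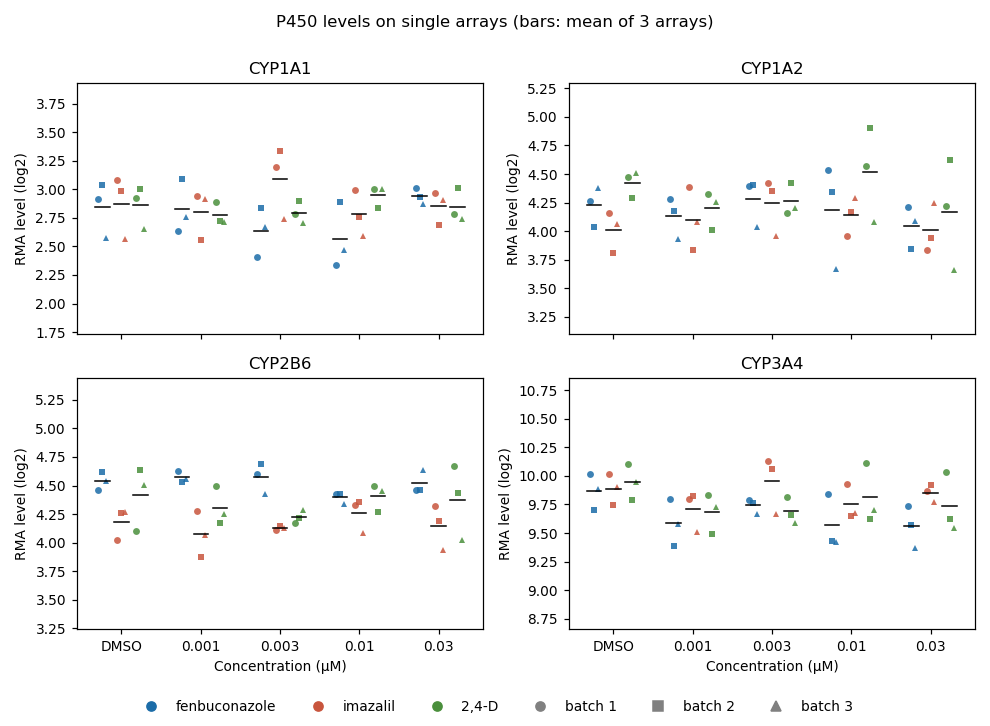
RMA levels (log2, vertical axis) of 4 P450 genes on single arrays of the DMSO and low-dose groups, by concentration in µM (horizontal axis). Colour gives the chemical, marker shape gives the batch, and bars are means of 3 arrays. Each panel spans the same range, and the low-dose arrays overlap the DMSO arrays of their set in all 4 genes.

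No probe set passed the test in any of the 3 chemicals. With limma, the counts at an adjusted p under 0.05 were 0 higher and 0 lower of 54715 (0% and 0%) for fenbuconazole, for imazalil and for 2,4-D. At an unadjusted p under 0.05 there were 2789, 4381 and 3765 probe sets, which is 5.1%, 8.01% and 6.88% of those tested. The smallest adjusted p was 0.0837, 0.202 and 0.131. The differences ranged from -0.68 to 0.68 for fenbuconazole, from -0.71 to 0.83 for imazalil and from -0.87 to 0.73 for 2,4-D, and 53, 139 and 45 probe sets differed by more than 0.5 in either direction. The median 95% interval reached 0.22, 0.22 and 0.21 to each side. The test of differences among the 4 concentrations also gave 0 probe sets (0%) for each chemical, with 1881, 1981 and 3766 at an unadjusted p under 0.05 and smallest adjusted p of 1, 1 and 0.366. With the batch as a block, fenbuconazole gave 3 probe sets, of AGTPBP1, ZNF71 and COL5A1, and 2,4-D gave 1, of ZNF71. Without the DMSO array of batch 3, the 3 chemicals gave 1, 3 and 4 probe sets. The batch block gave 1 probe set, of the pyruvate dehydrogenase kinase PDK4, among the 4 concentrations of 2,4-D.

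When the 36 arrays were pooled against DMSO, 2 probe sets passed, both lower (0.00366% of 54715, with 0% higher), and 3355 had an unadjusted p under 0.05. Both were dim, and both genes are named here because the count was small. The probe set of AGTPBP1, a tubulin-processing carboxypeptidase, read 3.12, 3.24 and 3.30 in the DMSO arrays of the fenbuconazole set, and the 12 low-dose arrays ran from 2.23 through 2.61 to 2.97. All 12 lay below the controls. In the imazalil set all 12 did as well, from 2.24 through 2.53 to 2.89 beside 2.97, 3.11 and 3.08. In the 2,4-D set 11 of 12 did, from 2.39 through 2.51 to 2.85 beside 2.76, 3.10 and 3.16. The pooled difference fell by 0.54 (SE 0.090, adjusted p = 0.00474), with -0.36, -0.60 and -0.66 in batches 1, 2 and 3. The brighter probe set of AGTPBP1, at a mean level of 4.88, gave 0.20 (SE 0.13, adjusted p = 0.885), the opposite sign.

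The probe set of ZNF71, a zinc finger protein, behaved in the same way. Its DMSO levels were 3.73, 3.42 and 3.60 in the fenbuconazole set, and the low-dose arrays ran from 2.85 through 2.98 to 3.26. In the imazalil set they ran from 2.60 through 3.03 to 3.46 beside 3.89, 3.58 and 3.68, and in the 2,4-D set from 2.71 through 2.98 to 3.33 beside 3.66, 3.52 and 3.65. All 36 arrays lay below the controls of their set. The pooled difference fell by 0.63 (SE 0.11, adjusted p = 0.00949), with -0.72, -0.53 and -0.66 in the 3 batches. The brightest ZNF71 probe set, at 4.77, gave 0.18 (SE 0.13, adjusted p = 0.904), and the other two gave -0.024 and 0.023. The calls varied with the controls used, while the differences stayed of similar size. The count was 0 without the batch 2 DMSO array, 1 without that of batch 1, which was AGTPBP1, and 45 without that of batch 3, of which 14 were higher and 31 lower. Without the DMSO array of batch 1, 2 or 3 the difference of AGTPBP1 was -0.61, -0.52 and -0.50 (adjusted p = 0.0212, 0.226 and 0.0388), and that of ZNF71 was -0.57, -0.70 and -0.63 (adjusted p = 0.0952, 0.138 and 0.0385). Without one DMSO array the low-dose arrays of its batch stay in the comparison, so that the batches are no longer balanced. Without all arrays of a batch the counts were 0, 0 and 4 for batches 1, 2 and 3. Neither AGTPBP1, at -0.63, -0.51 and -0.48, nor ZNF71, at -0.59, -0.69 and -0.62, passed in any of these 3 fits, and the 4 probe sets were of DCLK1, IQCC, FAM106A and SPAG17.

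A complete separation of low-dose and control arrays was rare. Of 54715 probe sets, 4 had all 36 low-dose arrays above the DMSO arrays of their set (0.00731%) and 3 had all of them below (0.00548%). Those with 1 gene symbol were of FN1, CNGA1 and TAFA2 above and of ZNF71 and VAT1L below, named after their values were seen. The FN1 probe set, at a mean level of 4.79, gave 0.43 (SE 0.14, adjusted p = 0.585). The 4 brightest probe sets of FN1, which encodes the matrix protein fibronectin, had mean levels from 11.8 to 12.3 and gave 0.013 to 0.063. Within single sets, 92, 169 and 105 of 54715 probe sets had all 12 arrays above the controls for fenbuconazole, imazalil and 2,4-D. For 84, 145 and 127 of 54715 all 12 lay below. How many such probe sets 12 arrays against 3 would give without any difference was not tested.

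Of the genes with a mean level of at least 4 whose 12 group means all lay above DMSO, none passed the test, and those with the smallest p are given as values. DCLK1, a microtubule-associated kinase, read 4.71, 4.67 and 5.47 in the DMSO arrays of the fenbuconazole set, and the low-dose arrays ran from 5.07 through 5.49 to 5.76. The controls of batches 1 and 2 were thus lower than every low-dose array, and that of batch 3 lay among them. The pooled difference was 0.50 (SE 0.11, adjusted p = 0.206), made of 0.57, 0.85 and 0.088 in batches 1, 2 and 3. RBMS2, an RNA-binding protein, repeated this arrangement with 0.53 (SE 0.12, adjusted p = 0.222) and 0.74, 0.72 and 0.13 in the batches. TAF4, a subunit of the general transcription factor TFIID, gave 0.34 (adjusted p = 0.306), the kinase MAP3K21 0.40 (adjusted p = 0.348) and the chromatin remodeller CHD6 0.42 (adjusted p = 0.356). For these 3 genes too the batch 3 difference was the smallest, at 0.13, 0.13 and 0.26. The second bright probe set of DCLK1, at a mean level of 5.24, gave 0.37 (adjusted p = 0.670), whereas the second of RBMS2, at 4.19, gave 0.14.

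The genes with the smallest p on the lower side did not pass either. IQSEC2, an exchange factor for small GTPases, gave -0.30 (SE 0.086, adjusted p = 0.394), and 33 of 36 arrays lay below all controls of their set. Genes were named here only if every low-dose group mean lay below DMSO, so such counts follow partly from that choice. The sets also share their controls, so the 36 arrays are not separate evidence. How often such counts occur over all probe sets was not tested. IMPA2, an inositol monophosphatase, gave -0.17 (SE 0.052, adjusted p = 0.438). Its levels were 8.61, 8.51 and 8.43 in the DMSO arrays of the fenbuconazole set and 8.21 through 8.37 to 8.47 in the low-dose arrays. MECR, an enzyme of mitochondrial fatty acid synthesis, gave -0.23 (SE 0.073, adjusted p = 0.508) with 34 of 36 arrays below the controls and batch differences of -0.20, -0.22 and -0.28. The receptor kinase GRK6 gave -0.35 (adjusted p = 0.497), with -0.63 in batch 1 and -0.037 in batch 3, and its probe sets at mean levels of 5.04 and 4.90 gave 0.068 and 0.26. The sialyltransferase ST3GAL2 gave -0.29 (adjusted p = 0.515), with -0.55 in batch 1, and its second probe set, at 4.41, gave 0.11.

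The genes with the smallest p within each chemical were partly the same. For fenbuconazole they were TAF4 at 0.42 (adjusted p = 0.289), RANBP10 at 0.40 and CHD6 at 0.46 above DMSO, and COG7 at -0.37, RPL13AP17 at -0.35 and DUSP18 at -0.32 below it. For imazalil they were DCLK1 at 0.51 (adjusted p = 0.261), PRKG1 at 0.49 and WWC2 at 0.51, and RPL13AP17 at -0.34, ST3GAL2 at -0.33 and GRK6 at -0.42. For 2,4-D they were GLIDR at 0.59 (adjusted p = 0.268), RBMS2 at 0.51 and TENT5C at 0.41, and IQSEC2 at -0.36, GABRE at -0.52 and ENGASE at -0.26. The adjusted p of these 18 values lay between 0.261 and 0.869. Some of these genes had further probe sets with a mean level of at least 4. They gave 0.12 for RANBP10 with fenbuconazole, 0.028 and 0.30 for WWC2 with imazalil and -0.21 for ENGASE with 2,4-D. Since the 3 comparisons share their controls, a gene that recurs in them is not repeated evidence.

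Gene lists for the liver and for stress responses moved little. Of 392 genes in 29 lists 356 were measured, and 0 of them passed the test against DMSO in any chemical or in the pooled comparison, where 13 had an unadjusted p under 0.05 and were higher and 6 were lower. Among all 19774 genes 3.05% were higher and 2.89% lower at that unadjusted threshold. List medians ran from -0.075 to 0.083 for fenbuconazole, from -0.058 to 0.085 for imazalil and from -0.072 to 0.075 for 2,4-D. The medians over all genes were 0.0081, 0.0063 and 0.0048, and 53.3%, 52.1% and 52% of all genes were above DMSO. Of genes with a mean level of at least 4, 60.7%, 62.9% and 60.3% were above DMSO. CAR and PXR targets had medians of -0.056, -0.0087 and -0.065 for the 3 chemicals, with 3, 4 and 2 of 14 genes above DMSO. AHR targets had -0.024, 0.026 and -0.033, with 3, 7 and 3 of 9 genes above it. The xenobiotic list members with the smallest p were CYP3A4 and the aldehyde dehydrogenase ALDH3A1, an AHR target at -0.17 in the pooled comparison (adjusted p = 0.822). Cholesterol synthesis genes and SREBP2 targets had medians of -0.030, -0.017 and -0.016, with 7, 9 and 7 of 19 genes above DMSO. Among them ACAT2, which makes acetoacetyl-CoA, gave 0.14 (adjusted p = 0.805) and lanosterol synthase (LSS) -0.10 (adjusted p = 0.856) in the pooled comparison.

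**Figure D3:**
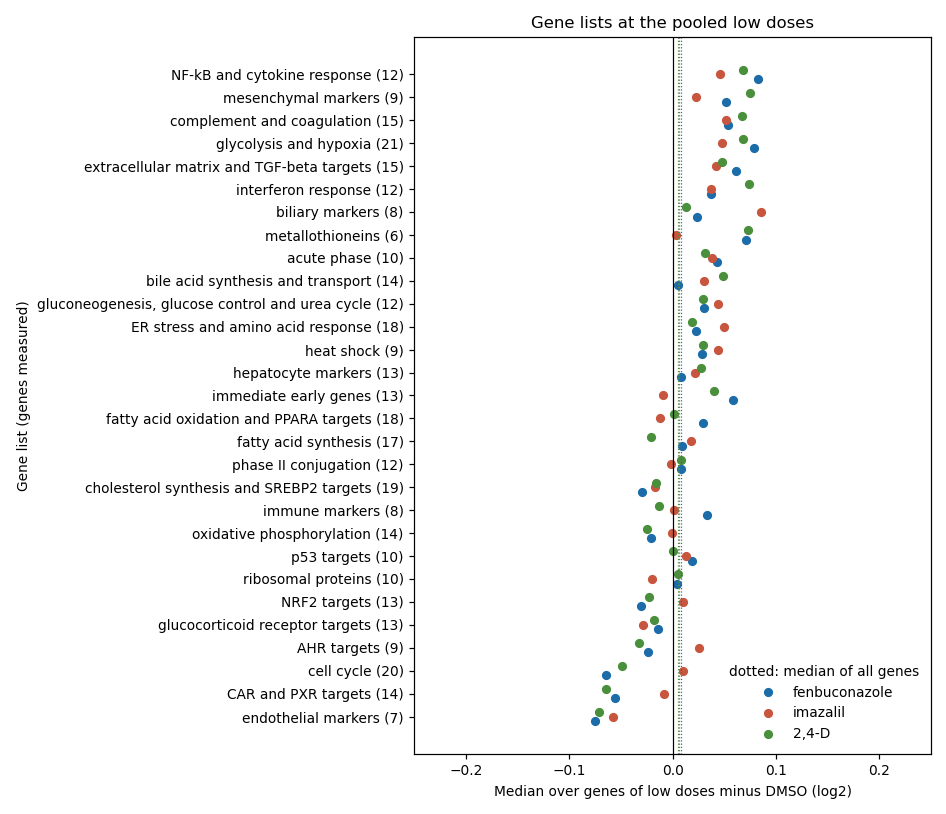
Median log2 difference between the pooled low doses and DMSO over the measured genes of each list (horizontal axis), by chemical (colour), with the number of genes in brackets. Dotted lines mark the medians of all genes. All list medians lie between -0.075 and 0.085, and the 3 chemicals share their DMSO arrays.

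Glycolysis and hypoxia genes were the list with the most members at an unadjusted p under 0.05 in the pooled comparison, with 4, although none of them reached it with imazalil alone. All 4 were higher than DMSO, and the list also had the most measured genes. At that threshold 462 of 10100 genes with a mean level of at least 4 were higher and 79 lower. Their median was 0.079 for fenbuconazole, 0.048 for imazalil and 0.068 for 2,4-D. Of 21 genes, 17, 16 and 17 (81%, 76.2% and 81%) were above DMSO, where 53.3%, 52.1% and 52% of all genes were. The list had a median level of 8.09, and of genes with a mean level of at least 4, 60.7%, 62.9% and 60.3% were above DMSO. The 4 members with the smallest p in the pooled comparison were PFKFB4, which sets fructose 2,6-bisphosphate, at 0.30 (SE 0.10, adjusted p = 0.564), the mitophagy receptor BNIP3 at 0.20 (adjusted p = 0.711), the collagen prolyl hydroxylase P4HA1 at 0.21 (adjusted p = 0.726) and NDRG1 at 0.22 (adjusted p = 0.791). Within batches 1, 2 and 3 the list median was 0.053, 0.10 and 0.038. In the pooled comparison 52.5% of all genes, and 62.2% of those with a mean level of at least 4, were above DMSO. Extracellular matrix and TGF-beta targets had a pooled median of 0.060, with thrombospondin (THBS1) at 0.42 (adjusted p = 0.711) and the collagens COL5A1 and COL4A1 at 0.19 and 0.20. Complement and coagulation genes had 0.063, with 12 of 15 genes above DMSO and C9, a pore-forming complement component, at 0.42 (adjusted p = 0.798). Cell cycle genes had -0.035, with 5 of 20 above DMSO, but the median with imazalil alone was 0.0095, with 11 of 20 above it, and batches 1, 2 and 3 gave -0.051, 0.050 and -0.076. Without the batch 2 DMSO array, which leaves the batches unbalanced, that median was -0.075. In that list the transcription factor E2F1 gave -0.22 (adjusted p = 0.627) and CCNE2, a cyclin of S phase entry, 0.34 (adjusted p = 0.797).

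The remaining lists showed the same scale. Bile acid genes had a pooled median of 0.036, with the transporter subunit SLC51A at 0.52 (SE 0.23, adjusted p = 0.762). SLC51A alone gave 0.68 for fenbuconazole, 0.35 for imazalil and 0.54 for 2,4-D. Fatty acid synthesis genes had 0.011, with their regulator SREBF1 at 0.22 (adjusted p = 0.676). Glucocorticoid receptor targets had -0.013, with 4 of 13 genes above DMSO and SERPINA6, the corticosteroid carrier, at -0.13 (adjusted p = 0.797). Oxidative phosphorylation, ribosomal protein, p53 target, NRF2 target, immune marker and cholesterol lists had pooled medians between -0.012 and -0.0015. Biliary markers had 0.045, with the keratin KRT7 at 0.35 (adjusted p = 0.591) from a dim probe set whose DMSO mean was 2.63. Mesenchymal markers had 0.066, with 6 of 9 above DMSO, LUM at 0.32 and THY1 at -0.25. Hepatocyte markers had 0.018, with 8 of 13 (61.5%) above DMSO, beside 62.2% of genes with a mean level of at least 4. Without the batch 2 DMSO array the median was 0.00047 for bile acid genes, 0.030 for fatty acid synthesis, -0.069 for glucocorticoid receptor targets and 0.090 for biliary markers. In that fit the batches are unbalanced, so differences between batches enter these values.

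The lists diverged between batches, and most in batch 2. When the low-dose arrays of a batch were set against its own DMSO array, the list median was farthest from 0 in batch 2 for 18 of 29 lists, in batch 1 for 5 and in batch 3 for 6. Medians beyond 0.1 in either direction occurred for 7 lists in batch 2, 2 in batch 3 and 0 in batch 1. Interferon response genes had -0.039, 0.19 and 0.060 in batches 1, 2 and 3, NF-kB and cytokine genes 0.011, 0.17 and 0.029, ER stress genes 0.019, 0.13 and 0.0032, and heat shock genes -0.0076, 0.10 and -0.025. Immediate early genes, which respond within minutes to stimulation, had -0.088, 0.071 and 0.11. Without batch 2, the pooled median of the interferon list was 0.00011, against 0.051 with it, and that of the NF-kB list 0.031, against 0.087. The median of the glycolysis and hypoxia list became 0.032, against 0.060. Without the batch 2 DMSO array alone, the medians of the NF-kB and immediate early lists were -0.12 and -0.12, against 0.087 and 0.012 with it. Those of the interferon and of the glycolysis and hypoxia lists were 0.0082 and 0.025. This fit keeps the low-dose arrays of batch 2, so the batches are unbalanced and differences between batches enter these medians. For the NF-kB and immediate early lists, -0.12 lies below the median within every batch. Without all of batch 2 the immediate early median was 0.0068.

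**Figure D4:**
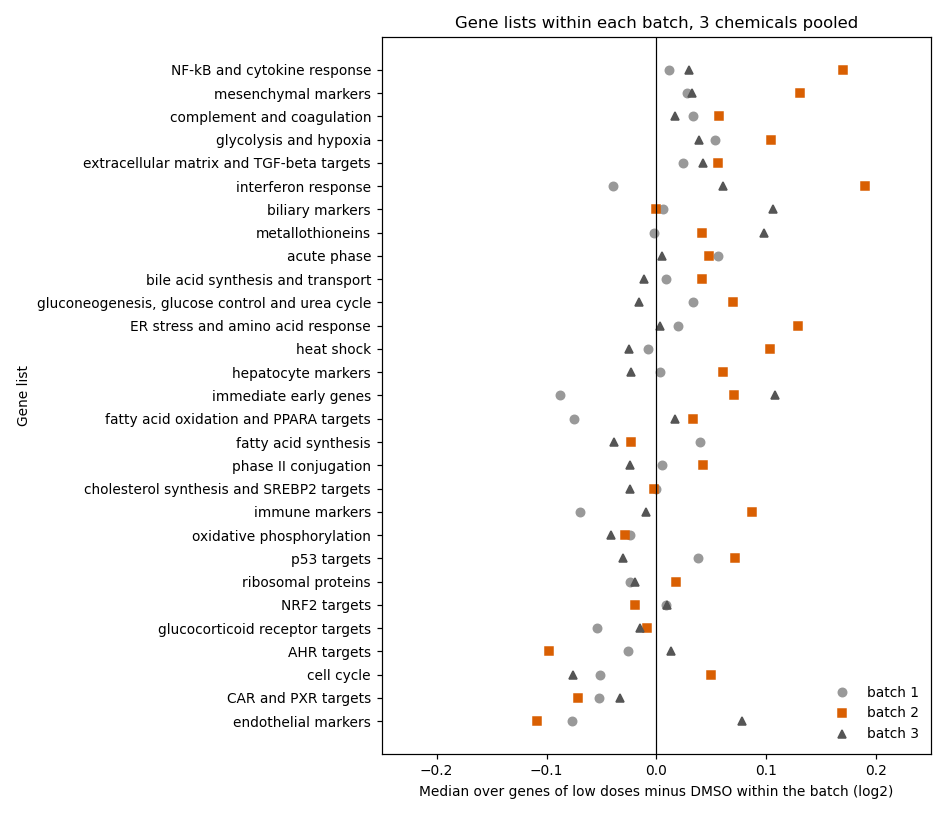
Median log2 difference between the 12 low-dose arrays and the DMSO array of the same batch, over the genes of each list, with the 3 chemicals pooled. Circles are batch 1, squares batch 2 and triangles batch 3. Batch 2 holds the value farthest from 0 in 18 of 29 lists.

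The same held for the expressed genes as a whole. Of 10100 genes with a mean level of at least 4, 62.2% were higher than DMSO in the pooled comparison, with a median of 0.025, and of 9674 dimmer genes 42.4% were, with a median of -0.019. Within batches 1, 2 and 3, 51%, 63.3% and 50.9% of the expressed genes were higher, with medians of 0.0037, 0.060 and 0.0024. Without batch 2 the median was 0.0056, and without its DMSO array alone, with the batches unbalanced, it was 0.0074. The SD over probe sets of the difference between the low-dose arrays and the DMSO array was 0.167, 0.248 and 0.166 in the 3 batches. The part of the batch 2 DMSO array in single gene values was not tested beyond these comparisons.

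The 3 chemicals were then compared with each other over their 12 low-dose arrays, once the mean of the DMSO columns had been taken off within every set. This made 3 pairs. The 12 arrays of a chemical came from 3 batches of cells, and the test counted arrays rather than batches as replicates. The spread between treated arrays gave 139 probe sets at an adjusted p under 0.05 for fenbuconazole against imazalil, with 75 higher in fenbuconazole and 64 lower (0.137% and 0.117% of 54715). It gave 21 for fenbuconazole against 2,4-D, with 15 higher and 6 lower (0.0274% and 0.011%), and 90 for imazalil against 2,4-D, with 59 higher and 31 lower (0.108% and 0.0567%). With the batch as a block the counts were 313, 31 and 228. They were 44, 11 and 77 without batch 1, 24, 22 and 41 without batch 2, 53, 6 and 18 without batch 3, and 6, 6 and 5 without the concentration of 0.03 µM. The 2,4-D samples at 0.001 and 0.003 µM of batch 2 carry the same running number in the labels, which leaves their concentrations less certain, and without both of them the count for imazalil against 2,4-D was 38. These tests leave out an error of the subtraction. The same DMSO array took different values in the 3 sets, and over probe sets the mean difference between a pair of sets had an SD of 0.111, 0.109 and 0.113. Once the spread of these differences over the 3 DMSO arrays was added to the standard error, the counts were 0, 0 and 0, with 4582, 2787 and 3907 probe sets at an unadjusted p under 0.05. With the block and this error together they were 0, 0 and 1. Genes that passed are therefore given with both adjusted p values, the second with this added error, and none of the named genes passed the second.

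ABCG2, a drug efflux transporter of the canalicular membrane, was higher with imazalil than with either other chemical by the first test. Relative to the DMSO mean of its set, ABCG2 ran from -0.61 through -0.26 to 0.095 in the low-dose fenbuconazole arrays, from -0.45 through 0.11 to 0.47 in imazalil and from -0.75 through -0.19 to -0.033 in 2,4-D. The ranges overlap, and 10 of 12 imazalil arrays lay above all 2,4-D arrays. Fenbuconazole minus imazalil was -0.44 (SE 0.081, adjusted p = 0.0091 and 0.392), and imazalil minus 2,4-D was 0.39 (adjusted p = 0.0241 and 0.379). On arrays outside the pooled groups the difference between fenbuconazole and imazalil was -0.18 at 0.1 and 0.3 µM and -0.71 at 1 to 10 µM, and these share the subtracted controls. The DMSO arrays themselves differed between the fenbuconazole and imazalil sets by -0.13, 0.30 and 0.29 for this gene.

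Glycogen synthase (GYS1) was lower with imazalil by the first test. It ran from -0.34 through -0.039 to 0.22 with imazalil, from -0.045 through 0.11 to 0.59 with fenbuconazole and from 0.074 through 0.28 to 0.49 with 2,4-D. Of 12 imazalil arrays 10 lay below all 2,4-D arrays. Imazalil minus 2,4-D was -0.33 (SE 0.058, adjusted p = 0.00841 and 0.301), and fenbuconazole minus imazalil was 0.25 (adjusted p = 0.0358 and 0.314). CSGALNACT1, which starts chondroitin sulfate chains, ran from -0.070 through 0.36 to 0.93 with fenbuconazole and from -0.27 through -0.080 to 0.21 with imazalil, a difference of 0.44 (SE 0.097, adjusted p = 0.0306 and 0.158). At 1 to 10 µM that difference was 0.038. The peptidase LMLN ran from -0.38 through 0.034 to 0.70 with fenbuconazole and from 0.17 through 0.50 to 1.31 with imazalil, a difference of -0.56 (SE 0.13, adjusted p = 0.0323 and 0.215). The other probe sets of LMLN gave -0.041, -0.0092 and -0.083.

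**Figure D5:**
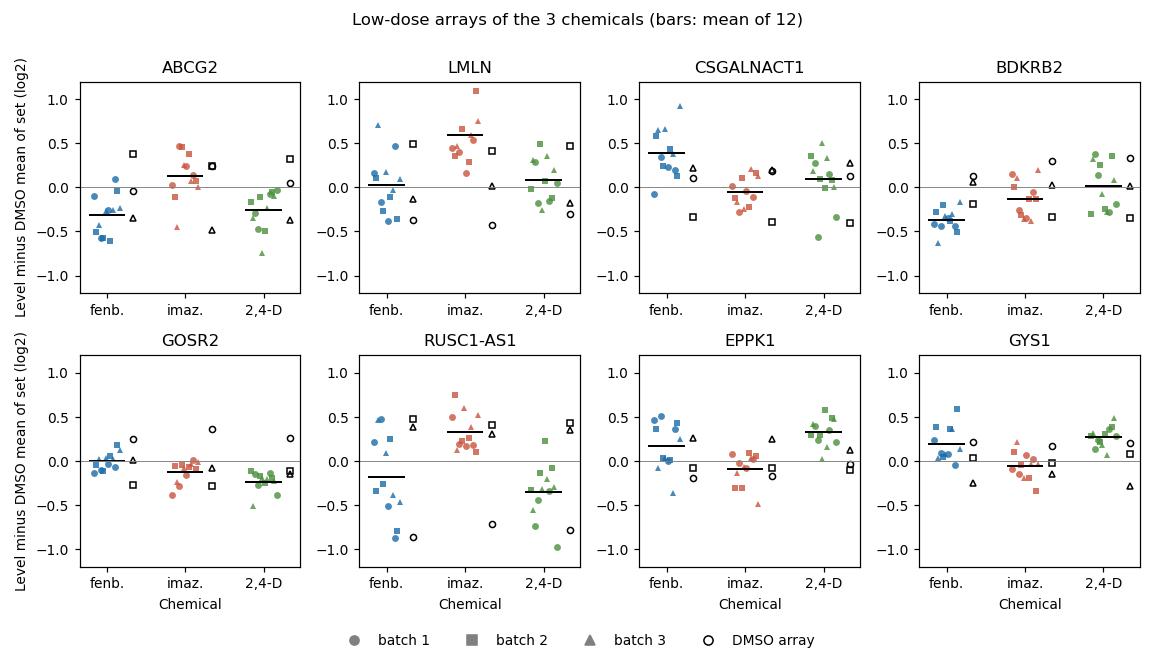
Levels of 8 genes on the low-dose arrays of fenbuconazole, imazalil and 2,4-D, minus the DMSO mean of the set (log2). Marker shape gives the batch, bars are means of 12 arrays, and open black markers are the DMSO arrays. ABCG2 means are -0.31, 0.13 and -0.26, and single arrays of the chemicals overlap.

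Among the genes that differed between fenbuconazole and 2,4-D, the bradykinin receptor BDKRB2 ran from -0.63 through -0.36 to -0.17 with fenbuconazole and from -0.31 through 0.0058 to 0.38 with 2,4-D. The difference was -0.38 (SE 0.080, adjusted p = 0.0369 and 0.768), and 8 of 12 fenbuconazole arrays lay below all 2,4-D arrays. GOSR2, a SNARE protein of the Golgi, ran from -0.13 through -0.0044 to 0.18 and from -0.51 through -0.20 to -0.11, so that 11 of 12 fenbuconazole arrays lay above all 2,4-D arrays. Its difference was 0.23 (SE 0.046, adjusted p = 0.0253 and 0.933), while the next brightest probe sets of GOSR2 gave -0.0020, 0.021 and -0.19. The actin-capping protein CAPG and SHKBP1 were higher by the first test with fenbuconazole than with both other chemicals, by 0.27 and 0.28 over imazalil and by 0.29 and 0.27 over 2,4-D. For CAPG the adjusted p values were 0.0181 and 0.136 against imazalil and 0.0187 and 0.254 against 2,4-D, and for SHKBP1 they were 0.0181 and 0.146, and 0.0428 and 0.482. The mean levels of BDKRB2, CAPG and SHKBP1 were low, at 3.86, 2.64 and 4.14.

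Between imazalil and 2,4-D, the antisense transcript RUSC1-AS1 had the largest difference among the named genes, 0.68 (SE 0.15, adjusted p = 0.0308 and 0.104). It ran from 0.098 through 0.25 to 0.75 with imazalil and from -0.97 through -0.32 to 0.23 with 2,4-D, and its second probe set gave 0.28. Whether the probes for it see the antisense strand alone was not tested. ESCO2, an acetyltransferase of cohesin, gave 0.58 (adjusted p = 0.0406 and 0.207), and its other probe sets, all dim, gave -0.035 to 0.17. EPPK1, a cytoskeletal linker of epithelia, gave -0.42 (SE 0.081, adjusted p = 0.00875 and 0.207), with imazalil arrays from -0.48 through -0.042 to 0.087 and 2,4-D arrays from 0.023 through 0.33 to 0.58. The second EPPK1 probe set, at a mean level of 5.53, gave 0.15, the opposite sign. Of the list genes, the bone and biliary matrix protein SPP1, lower with fenbuconazole than imazalil by -0.19 (adjusted p = 0.0229 and 0.307), and the angiopoietin receptor TEK, higher by 0.29 (adjusted p = 0.043 and 0.386), passed the first test, and no others did in the 3 pairs. The TEK probe set was dim, at a mean level of 3.02.

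No P450 gene passed the test between chemicals at the low doses. For CYP3A4, fenbuconazole minus imazalil was -0.18 (SE 0.073, adjusted p = 0.257 and 0.509) and imazalil minus 2,4-D 0.14 (adjusted p = 0.451 and 0.726). For CYP2B6 the 3 pairs gave 0.0063, 0.061 and 0.054, for CYP1A1 -0.11, -0.079 and 0.027, and for CYP1A2 -0.18, 0.073 and 0.25, with adjusted p of 0.414 or more. At 1 to 10 µM the same subtraction put imazalil above 2,4-D by 2.76 for CYP2B6 and 2.43 for CYP1A1. List medians differed between chemicals by -0.080 to 0.065, the ends being cell cycle genes in fenbuconazole minus imazalil and in imazalil minus 2,4-D. Over all probe sets that passed the first test, the median size of the difference was 0.29, 0.29 and 0.30 in the 3 pairs. Counted as positive in the low-dose direction and negative against it, the median was 0.11, 0.099 and 0.13 at 0.1 and 0.3 µM and 0.080, 0.054 and 0.12 at 1 to 10 µM. At 0.1 and 0.3 µM 23, 6 and 12 of the 139, 21 and 90 probe sets had the opposite sign, and at 1 to 10 µM 35, 2 and 13 had, among them PTPRU, CPEB1-AS1 and NAA35 in fenbuconazole minus imazalil, at -0.11, -0.12 and 0.20. The values on these arrays did not enter the low-dose difference, but the arrays helped to set the spread used in the first test. They also share the RMA sets and the subtracted controls.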

How the data were processed

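The platform was the Affymetrix HT HG-U133+ PM array. The authors deposited log2 values from RMA, computed for 1 chemical at a time with the 3 DMSO arrays included each time. RMA and Partek are listed in the submitters' processing notes (version: not given in the sources used here). The file has 90 columns, all used, and 54715 probe sets, 102 of them controls. Array medians of the low-dose and DMSO columns ranged from 2.82 to 2.97. The number of arrays limits the precision.

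Group means were fitted with limma 3.58.1 in R 4.3.3 to the 30 arrays of a set, and the mean of the 4 low groups was compared with DMSO by the moderated t, two-sided. The pooled comparison used the 81 treated columns and 3 averaged DMSO arrays after subtraction of each set's DMSO mean, and pairs of chemicals used the 81 treated columns. The comparison of 1 to 10 µM with the low doses, the standard error with the offset between sets, and the list medians without batch 2 or its DMSO array were added after the data were seen. P values were adjusted by Benjamini-Hochberg over all probe sets at 0.05. The scripts were checked on simulated data. Figures used matplotlib 3.10.9 in Python 3.11.15.

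A gene was represented by its brightest probe set with 1 symbol in the platform annotation (40920 such probe sets, 19774 genes), and 7 list genes were matched through an older symbol. Genes were named by rule. For the pooled comparison it takes the 10 largest changes each way past the threshold, with a mean of at least 4 and all 12 group means on one side of DMSO, filled to 5 by smallest p. For each chemical it takes 5 each way, filled to 3, with all 4 group means on one side. For each pair it takes 5 each way past the threshold, filled to 3, with no limit on the level. It adds 4 P450 genes and up to 4 genes per list. The members, lists and rule were chosen with earlier results of these data known.

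According to the study's supplement each replicate is a batch of cells grown independently. The labels' P code was used as that batch. Deviations of the low-dose and DMSO arrays from their group means had a mean r of 0.0789 within and -0.0392 between codes in the fenbuconazole set. The values were 0.128 and -0.0638 in the imazalil set, and 0.109 and -0.0543 in the 2,4-D set. Deviations from a mean of 3 arrays cancel out, so the between-code r largely follows from the within-code r and is no separate contrast. Title numbers differ from the code for many 2,4-D samples, and by them the r within a number was 0.0196.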

Additional observations from a re-analysis of the deposited data

Results flagged for a closer look

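These genes differed between a pair of chemicals at the low doses by limma's test on the treated arrays, with 12 arrays each, with adjusted p from 0.00841 to 0.0486. None of them passed once the spread of the DMSO arrays between RMA sets was included, with adjusted p from 0.104 to 0.933. In fenbuconazole minus imazalil the higher genes were CSGALNACT1 by 0.44, GPR21 by 0.40, PTPRU, a receptor phosphatase, by 0.38, CPEB1-AS1 by 0.36 and ENPP3 by 0.36. The lower ones were LMLN with -0.56, ABCG2 with -0.44, LOC100132356 with -0.40, ALOX12P2 with -0.37 and the acetyltransferase subunit NAA35 with -0.34. In fenbuconazole minus 2,4-D the higher genes were MIR124-1HG by 0.36, SRRM3 by 0.36, CAPG by 0.29, SHKBP1 by 0.27 and GOSR2 by 0.23, and the lower ones were BDKRB2 with -0.38 and ARSG with -0.27. In imazalil minus 2,4-D the higher genes were RUSC1-AS1 by 0.68, ESCO2 by 0.58, NFAM1 by 0.39, ABCG2 by 0.39 and ZSCAN29 by 0.35, and the lower ones were EPPK1 with -0.42, GYS1 with -0.33, A1BG with -0.32, CARMIL3 with -0.31 and GPR132 with -0.29. PRR23D2, at -0.28 in fenbuconazole minus 2,4-D, had the next smallest p on the lower side and did not pass (adjusted p = 0.0679). Many of these genes were dim. In the first pair the mean levels of GPR21, CPEB1-AS1, ENPP3, LOC100132356 and ALOX12P2 lay between 2.86 and 3.26. In the second those of MIR124-1HG, SRRM3, CAPG, BDKRB2 and ARSG lay between 2.38 and 3.86. In the third those of NFAM1, A1BG, CARMIL3 and GPR132 lay between 2.49 and 3.07.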

How the results depend on the processing

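Counts are probe sets at an adjusted p under 0.05. With the P code as a replicate block, the comparisons with DMSO gave 3 for fenbuconazole and 1 for 2,4-D in place of 0, the differences among concentrations of 2,4-D gave 1, and the pairs gave 313 for fenbuconazole against imazalil and 228 for imazalil against 2,4-D. The same block gave 214, 518 and 57 for 1 to 10 µM against the low doses. With the title number as the block, fenbuconazole against DMSO gave 3 and fenbuconazole against imazalil 220. The blocks moved no other count by over 1.5 times. Without the 2,4-D arrays that share a sample code, imazalil against 2,4-D gave 38. With 15 arrays in the fit, 2,4-D against DMSO gave 1, of ZNF71.

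Leaving out a batch, a DMSO array or a concentration in turn gave 0 to 1 for fenbuconazole, 0 to 3 for imazalil, 0 to 4 for 2,4-D and 0 to 45 for the pooled comparison with DMSO. It gave 6 to 66 for fenbuconazole against imazalil, 3 to 22 for fenbuconazole against 2,4-D and 5 to 77 for imazalil against 2,4-D. Leaving out a batch gave 29 to 72, 59 to 158 and 0 to 1 for the 1 to 10 µM comparisons. The cause was not tested. Only probe sets with a mean of at least 4 gave 0 for the pooled comparison and 86, 4 and 55 for the 3 pairs, and 1 probe set per gene gave 0 and 78, 8 and 23, with fewer features tested. Without subtraction of the DMSO mean the pairs gave 8190, 6100 and 11815, and after quantile normalization 6623, 4711 and 6563, which then hold the offsets between RMA sets. The error of those offsets gave 0 in all pairs, and with the block 0, 0 and 1. Of 1520 recomputed values of named genes, 234 lost and 11 gained a call, none turned with a call, and 55 turned without one, all of P450 genes. The number of arrays limits the precision. On the log2 scale the median interval against DMSO reached 0.22, 0.22 and 0.21 to each side for fenbuconazole, imazalil and 2,4-D. Some genes had wider intervals, with an SE of 0.20 for CYP2B6 with fenbuconazole and 0.20 for CYP1A1 with imazalil.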
